A study of Mus musculus with 18 samples.

Results

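The 7 genes described here encode the enzymes that place and remove methyl groups on cytosine in DNA, together with the protein that brings the maintenance enzyme to replicated DNA. Dnmt1, Dnmt3a, Dnmt3b, Uhrf1, Tet1, Tet2 and Tet3 were found by symbol in the tables of read counts, and all 7 were among the 43346 genes counted and the 26717 genes tested. Their levels were read in 18 RNA-seq libraries of Lgr5+ crypt cells. The cells came from untreated C57BL/6 mice that carry eGFP and a tamoxifen-inducible Cre in the Lgr5 locus (genotype Lgr5_eGFP_Iris_creERT2 by the labels), aged 8 to 20 weeks after birth. In these mice eGFP marks cells by the activity of the Lgr5 locus and is patchy between crypts, and no group without the allele was sequenced.

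Cells of the small intestine (SI) and the large intestine (LI) were sorted as EPCAM+ cells with high, medium or low eGFP. High eGFP stands for the centre of the crypt base, medium for its border and low for cells of row >3, above the Lgr5 zone. This gave 6 groups with 3 replicates each. The study's methods call the replicates biological. The labels do not name the mouse behind each number, so p-values measure the spread between these libraries. In bulk libraries fewer cells that express a gene and less RNA per cell cannot be told apart.

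DNA methylation at CpG is copied after each round of replication. UHRF1 recognises DNA that is methylated on the old strand only and recruits DNMT1, which methylates the new strand. DNMT3A and DNMT3B set methyl groups on DNA that carries none, and the TET enzymes oxidise 5-methylcytosine, which leads to its loss through repair or through dilution in dividing cells. In the intestinal crypt, DNMT1 is known to be needed in dividing progenitor cells, and TET1 has been linked to Lgr5+ stem cells in mice.

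Depth differed between libraries, from 8312093 to 31940965 counted reads, and raw counts of single genes went from 14 reads for Tet1 to 10754 for Dnmt1. Normalised read counts are the authors' counts divided by 1 size factor per library. Epcam was high in every library, with 14654 to 24706 normalised read counts, and Lgr5 followed the sort in all but 1 library. The lowest Lgr5 level in a centre library was 2176 in the LI and 2434 in the SI, 5 of the 6 border libraries had 1184 to 2028, and the highest in row >3 was 466. The exception was SI border replicate 3 with 157, within the range of row >3. The 3 SI libraries of replicate 3 stood apart from the other SI libraries. Car1, a carbonic anhydrase of the LI, had 1668, 22796 and 38981 normalised read counts in them at centre, border and row >3, against 0 to 215 in the other SI libraries. Over 33 to 51 genes with at least 20-fold more CPM in the LI than in SI replicate 1, they had a median of 60.7%, 84.9% and 79.3% of the LI level at these 3 levels of eGFP, against 1.75%, 1.62% and 1.15% in SI replicate 2. The tests of the members within the SI, and most of the counts and levels set beside them, are therefore also given without these 3 libraries. Immune and stromal markers were low but not absent. The 10 immune markers summed to 348 to 481 normalised read counts in SI centre and 181 to 1601 in SI row >3 libraries. The sums over 9 of the 10 stromal markers tested were 47.8 to 141 and 248 to 308. Cd3e and Col1a1 reached at most 9.44 and 122 in any library. Other immune markers were higher, with 1393 for Itgam in SI row >3 replicate 1 and 555 for Ptprc in SI border replicate 1.

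The genes lie on 7 chromosomes in mm10, by GENCODE release M21. Dnmt1 is at chr9:20907209-20959888 (-), Uhrf1 at chr17:56303321-56323486 (+), Dnmt3a at chr12:3806007-3914443 (+), Dnmt3b at chr2:153649450-153687730 (+), Tet1 at chr10:62804570-62908996 (-), Tet2 at chr3:133463679-133545139 (-) and Tet3 at chr6:83362373-83459084 (-). Exons of Dnmt3a overlap those of Dnmt3aos on the opposite strand, which reached at most 0.870 CPM in any library. Exons of Tet2 overlap those of Gm42567, which is not used here.

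Promoter sequence is shown for the 2 members with a match to the letters searched and for Tet3, since DNMT1 and UHRF1 act in S phase and many genes of DNA replication carry binding letters of the E2F factors at their start. The 250 bases before each annotated start were taken from RefSeq on GRCm38.p6, with 12 such windows for the 7 genes. They were searched on both strands for TTTCCCGC, TTTCGCGC, TTTGCCGC and TTTGGCGC. These letters occurred in 2 of the 12 windows, 1 each of Dnmt1 and Uhrf1, and in none of the windows of Dnmt3a, Dnmt3b, Tet1, Tet2 and Tet3. Of all 32851 windows of the same length, 1.86% held 1 of them. Counted by gene, it was 2 of the 7 members, 4 of 13 S phase genes with a window and 2.16% of all 27025 genes with a window. The windows of the members had a median of 19 CpG, against 6 in all windows, and these shares take no account of CpG content. In the window of Uhrf1, at chr17:56304063-56304312 (+) and free of its annotated exons, the match starts 185 bases before the transcription start. In Dnmt1 the match reads GCGCGAAA, the other strand of TTTCGCGC. It starts 219 bases before the most downstream of 3 annotated starts and lies in an exon of transcripts that begin further upstream, so 30 bases at chr9:20952824-20952853 (-) are given. The window of Tet3, at chr6:83441679-83441928 (-), is shown as one without these letters. Tet1, which was lower in row >3 cells like Dnmt1 and Uhrf1, has no match either, and its window is not printed because 100 of the 250 bases lie in its annotated exons. This window of Tet1 lies before a start at chr10:62887324, whereas the gene reaches to position 62908996 on the minus strand. The bases before that end were not searched, and which starts these cells use was not measured. Whether a match goes with a lower level in row >3 cells was not tested. Capitals mark the match.
Uhrf1: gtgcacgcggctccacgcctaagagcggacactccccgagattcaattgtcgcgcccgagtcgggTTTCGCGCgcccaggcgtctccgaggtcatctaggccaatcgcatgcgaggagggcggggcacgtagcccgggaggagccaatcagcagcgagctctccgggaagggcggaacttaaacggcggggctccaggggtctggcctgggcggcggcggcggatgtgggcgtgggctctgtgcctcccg
Dnmt1: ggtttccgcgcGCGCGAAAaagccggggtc
Tet3: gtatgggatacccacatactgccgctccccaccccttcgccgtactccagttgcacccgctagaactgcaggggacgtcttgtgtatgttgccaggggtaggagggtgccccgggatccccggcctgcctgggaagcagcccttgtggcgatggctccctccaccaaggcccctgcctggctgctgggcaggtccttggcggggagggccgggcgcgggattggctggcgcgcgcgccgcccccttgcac
A match is a description of the sequence and not a binding site, and binding was not measured here.

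Per length, Dnmt1 and Uhrf1 had the highest mean levels of the 7 transcripts over all libraries, an order that did not hold in every library. In SI row >3 replicate 3 Tet3 (7.55 TPM) was above Dnmt1 (6.99) and Uhrf1 (4.37), and in SI row >3 replicate 1 it was above Uhrf1 (9.91 and 9.49 TPM). Over the 18 libraries the mean level of Dnmt1 was 28.9 TPM (transcripts scaled to a fixed sum per library, computed here from the counts and the summed exon length), above that of 97.2% of 26402 genes. Uhrf1 had 22.9 TPM, above 96.4% of genes. Tet3 followed with 8.07 TPM, then Dnmt3a with 3.77, Tet2 with 2.51 and Dnmt3b with 1.11. Tet1 was the lowest with 0.273 TPM, above 46.2% of genes. The ratio between the highest and the lowest library also differed between genes. Dnmt3a went from 1196 to 2479 normalised read counts, whereas Tet1 went from 21.9 to 209 and Uhrf1 from 810 to 4432.

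**Figure D1:**
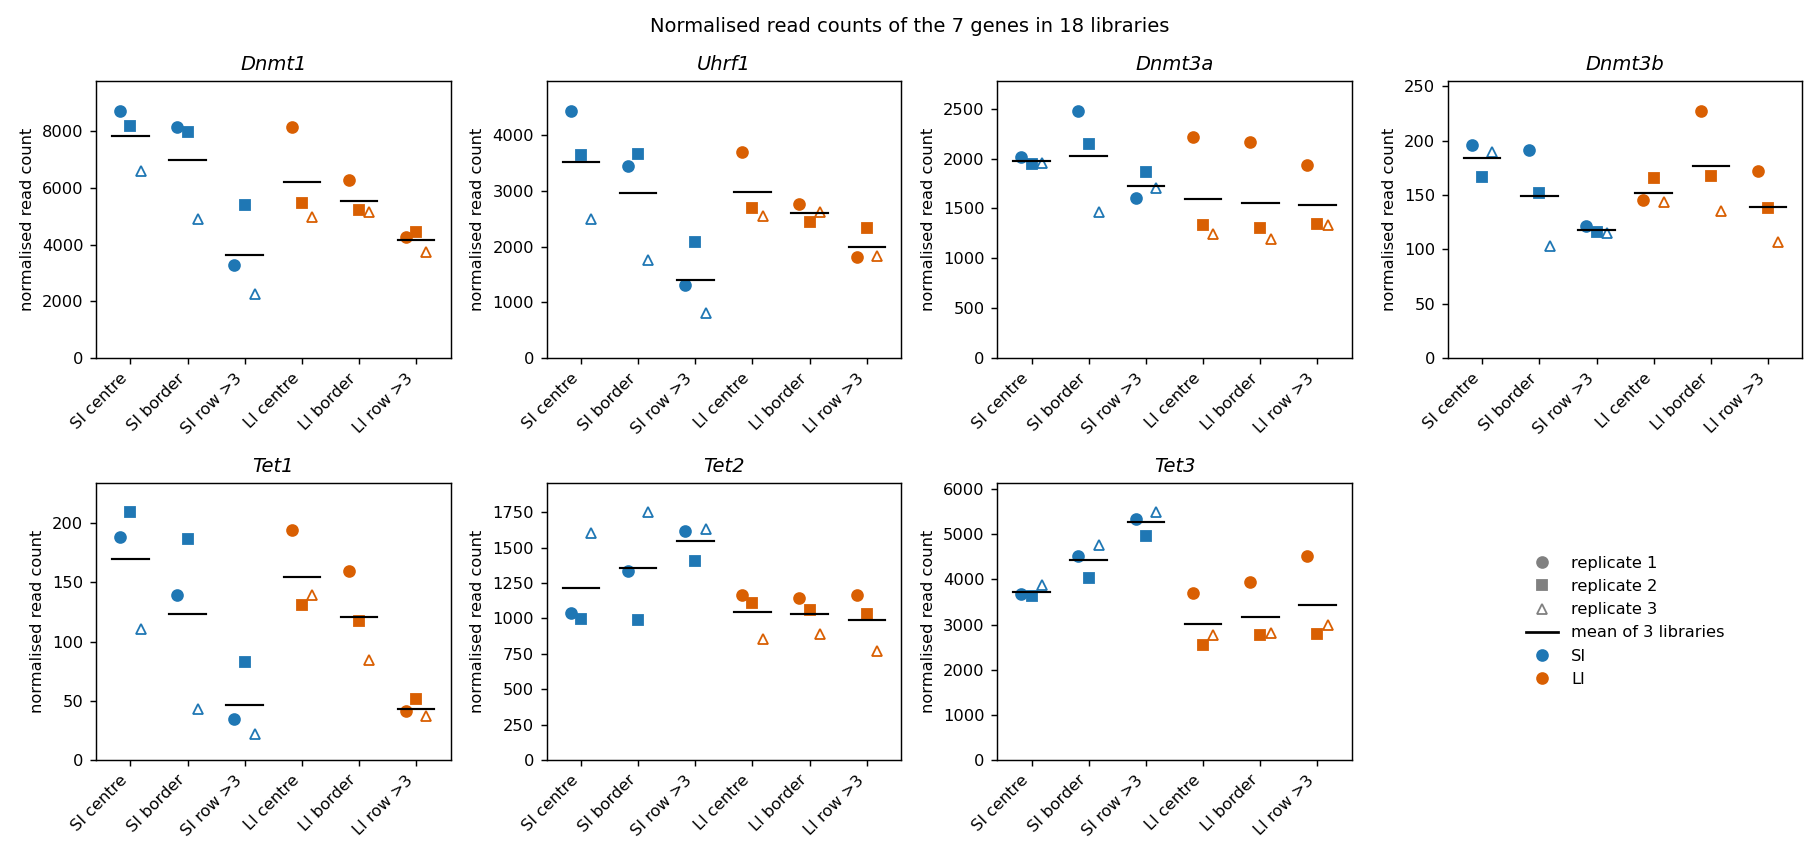
Normalised read counts (y axis, linear from 0) of the 7 genes in SI (blue) and LI (orange) libraries at 3 levels of eGFP, with 1 point per library, the replicate number as the shape and the mean of 3 libraries as a bar. Dnmt1, Uhrf1 and Tet1 are lower in all row >3 libraries than in all centre libraries of the same site, and Tet3 is higher in row >3 than in centre libraries of the SI.

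To find out how these enzymes vary with the distance from the crypt base, row >3 cells were first compared with centre cells of the SI. Dnmt1, Uhrf1 and Tet1 fell in row >3 cells, by 2.15-fold, 2.50-fold and 3.47-fold, and no member passed the test in the other direction. Thus 3 of 7 members were called, against 13.2% of all genes tested in this comparison and 5.82% that were called lower. Genes were tested with the quasi-likelihood test of edgeR, p-values were adjusted by Benjamini-Hochberg over all genes, and a gene was called at an adjusted p under 0.05. Without the 3 SI libraries of replicate 3 the same 3 members were called, against 17.1% of genes. The shares over all genes tested include many genes with few reads. In a fit of the 15998 genes kept by filterByExpr, a filter on low counts, 25.8% were called in this comparison.

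Dnmt1, the maintenance methyltransferase, had 8714, 8167 and 6587 normalised read counts in SI centre replicates 1 to 3 and 3289, 5379 and 2245 in row >3. All row >3 libraries lay below all centre libraries. The log2 fold change was -1.10 ± 0.24 (SE, adjusted p = 0.00483 by edgeR). Without the SI libraries of replicate 3 it was -0.96 (adjusted p = 0.00185).

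Uhrf1, its recruiting partner at replicated DNA, had 4432, 3640 and 2491 normalised read counts in SI centre and 1306, 2090 and 810 in row >3. The groups did not overlap, and edgeR gave a log2 fold change of -1.32 ± 0.30 (SE, adjusted p = 0.00604 by edgeR), and -1.25 (adjusted p = 0.000104) without the SI libraries of replicate 3.

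Tet1, the TET enzyme with the lowest level here, had 188, 209 and 111 normalised read counts in SI centre and 34.9, 82.9 and 21.9 in row >3. The groups did not overlap, and the highest row >3 library, replicate 2, was close to the lowest centre library, replicate 3. The log2 fold change was -1.79 ± 0.45 (SE, adjusted p = 0.00989 by edgeR), and -1.77 (adjusted p = 0.0014) without the SI libraries of replicate 3. The reads behind these values numbered 14 to 105 per row >3 library. Without SI row >3 replicate 1 Tet1 was not called (-1.57, adjusted p = 0.0755). In a fit of the SI centre and row >3 libraries alone, Dnmt1 (adjusted p = 0.0607) and Uhrf1 (adjusted p = 0.0762) were not called, while Tet1 was, and Tet3 was called higher, against 10.7% of all genes called.

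The other 4 members did not pass the test in the SI. The 3 centre libraries of Tet3 had 3680, 3638 and 3872 normalised read counts, and those of row >3 had 5342, 4974 and 5487. These groups did not overlap, with row >3 higher by a log2 fold change of 0.50 ± 0.18 (SE, adjusted p = 0.0636 by edgeR). Dnmt3b, a de novo methyltransferase, had 196, 167 and 189 in centre libraries against 122, 116 and 116 in row >3. Its groups did not overlap either, with a log2 fold change of -0.64 ± 0.27 (SE, adjusted p = 0.138 by edgeR). Dnmt3a, the other de novo enzyme, had 2012, 1948 and 1953 in centre libraries against 1602, 1866 and 1703 in row >3, a small shift of -0.19 ± 0.23 (SE, log2, adjusted p = 0.727 by edgeR) with groups that did not overlap. Tet2 had 1037, 995 and 1607 in centre libraries against 1616, 1404 and 1630 in row >3. The centre library at 1607 is replicate 3, and it made the groups overlap. Without the SI libraries of replicate 3 the log2 fold change was 0.50 for Tet3 (adjusted p = 0.107), -0.61 for Dnmt3b (0.207), -0.19 for Dnmt3a (0.809) and 0.58 for Tet2 (0.0537), all by edgeR.

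In all, the CPM of 6 of the 7 members did not overlap between SI row >3 and SI centre libraries, against 25.1% of all genes tested. Equal replicate numbers paired the libraries within a site (values in the methods), and a fit that took these numbers as blocks inside each site called 6 of 7 members, against 22.8% of all genes. It added Dnmt3b (adjusted p = 0.044), Tet2 (log2 fold change 0.40, adjusted p = 0.0268) and Tet3 (0.50, adjusted p = 0.00025 by edgeR with the replicate block) to the 3 genes above. Dnmt3a stayed uncalled (adjusted p = 0.371). When the SI libraries of replicate 3 were left out of the blocked fit, 5 of 7 members were called, against 23.7% of all genes. Dnmt3b was not among them (adjusted p = 0.0829), and Tet2 was (0.57, adjusted p = 0.00169).

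The direction of Tet2 and the size of the difference in Tet3 depended on the scale. On TPM, which also moves with the most abundant transcripts, the mean of Tet3 was 8.49 ± 1.14 (SD, n = 3) for SI centre libraries and 8.58 ± 1.21 for row >3, and that of Tet2 was 2.70 ± 0.65 and 2.50 ± 0.41. Between these groups the median gene of 11102 with at least 1 TPM shifted by -0.46 on the log2 scale of TPM. Relative to that median, Tet3 was at 0.48, Tet2 at 0.35, Dnmt1 at -1.11, Uhrf1 at -1.35 and Tet1 at -1.86. Scaling by library size alone, without TMM factors, moved the fold changes of the members in this comparison by -0.20 to -0.17. Goblet cell markers moved in the same comparison, with a summed level of 13905 to 203737 normalised read counts over 7 genes in SI centre libraries and 625036 to 1044390 in row >3. Of these 7 genes 6 were called higher and Clca1 was called lower. Enteroendocrine markers had 2 of 7 called higher, with sums of 58.8 to 5840 in centre and 770 to 12236 in row >3. Tuft cell markers had 1 of 7 called higher, or 7 without the SI libraries of replicate 3, with sums of 716 to 9757 and 2190 to 9134. The 10 absorptive markers summed to 3686 to 8430 in centre and 16962 to 43789 in row >3. Paneth cell markers overlapped, with 31068 to 149109 in centre and 3325 to 79858 in row >3. The part of these cells in the results was not tested.

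**Figure D2:**
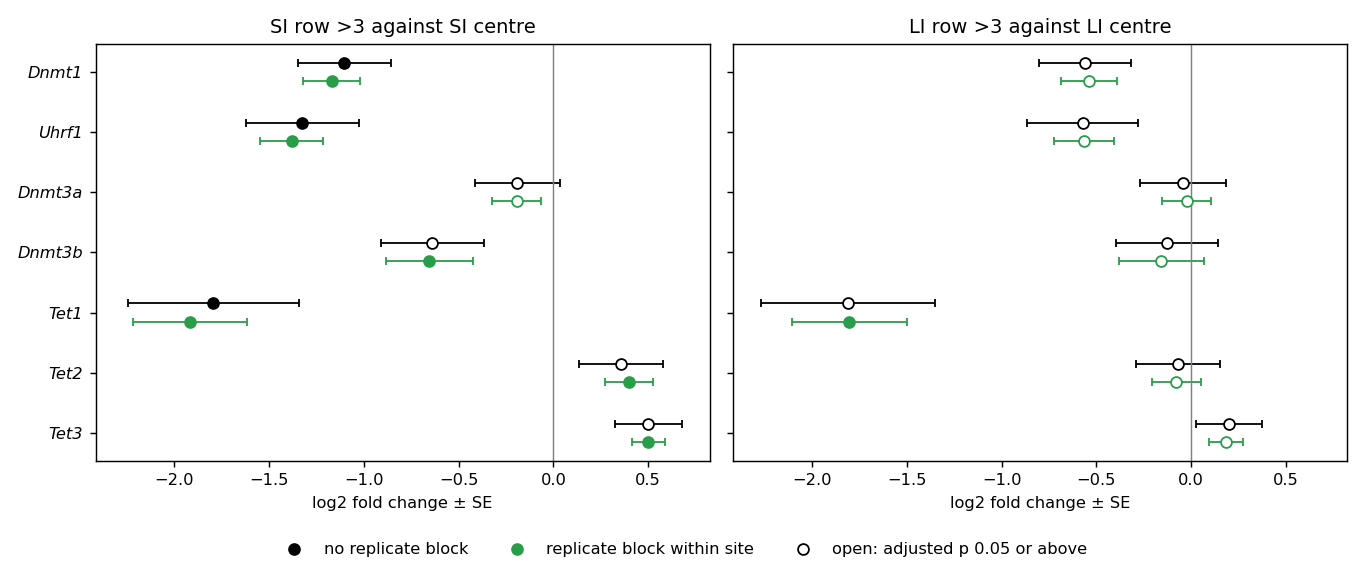
Log2 fold change with its SE (x axis) of each gene in row >3 against centre cells of the SI (left) and the LI (right), without (black) and with (green) replicate blocks inside each site; filled points have an adjusted p under 0.05 over all genes. In the SI, Dnmt1, Uhrf1 and Tet1 are filled in both fits, and in the LI Tet1 is filled in the blocked fit only.

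The same comparison was then made in the LI. Here no member was called, as were only 5 of 26717 genes (0.0187%), all lower in row >3. At an unadjusted p under 0.05 there were 2 members, Dnmt1 and Tet1, against 6.96% of all genes. DESeq2 called 1 member, Tet1 (adjusted p = 0.049), and 0.307% of genes.

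Tet1 had 194, 130 and 139 normalised read counts in LI centre and 41.0, 51.6 and 36.8 in row >3. All row >3 libraries were far below all centre libraries. The log2 fold change was -1.81 ± 0.46 (SE, adjusted p = 0.269 by edgeR), against -1.79 in the SI. Tet1 passed the test with the replicate block within site (-1.80, adjusted p = 0.00348 by edgeR), where 2.59% of all genes did, and in the fit without the SI libraries of replicate 3 (adjusted p = 0.00516), where 1.90% of genes did. Without the 3 LI libraries of replicate 1 its log2 fold change was -1.59 (adjusted p = 1).

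Dnmt1 had 8124, 5455 and 4986 normalised read counts in LI centre and 4270, 4459 and 3748 in row >3. The groups did not overlap, although LI centre replicate 1 was well above the other 2. Its log2 fold change was -0.56 ± 0.24 (SE, adjusted p = 0.65 by edgeR), and it was -0.34 without the 3 LI libraries of replicate 1. Uhrf1 had 3700, 2688 and 2547 in LI centre and 1805, 2328 and 1826 in row >3, again without overlap. Its log2 fold change was -0.57 ± 0.29 (SE, adjusted p = 0.752 by edgeR), and it was -0.33 without the 3 LI libraries of replicate 1. With the replicate block the adjusted p was 0.0576 for Dnmt1 and 0.0655 for Uhrf1.

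The other members overlapped between LI row >3 and LI centre. Tet3 had 3710, 2547 and 2769 normalised read counts in centre and 4523, 2799 and 2997 in row >3, with a log2 fold change of 0.20 ± 0.18 (SE) that turned to -0.03 without LI row >3 replicate 1. Dnmt3a had 2214, 1333 and 1249 in centre and 1938, 1345 and 1333 in row >3. Replicate 1 was the highest LI library for both genes at every level of eGFP. Tet2 (-0.07), Dnmt3a (-0.04) and Dnmt3b (-0.13) were close to 0. In all, 3 of 7 members did not overlap between the LI groups, against 14.9% of all genes. Goblet markers summed to 131183 to 208062 in LI centre and 289326 to 468766 in LI row >3 libraries, and their part was not tested.

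Whether row >3 and centre cells differed more in 1 site than in the other was tested as an interaction. No member was called, nor was any other gene (1800 genes had an unadjusted p under 0.05, and DESeq2 called 151). The change of Uhrf1 was lower by 0.75 ± 0.41 (SE, log2) in the SI than in the LI (adjusted p = 0.832 by edgeR, 0.0647 with the replicate block), and that of Dnmt1 by 0.54 ± 0.34 (adjusted p = 0.906). For Tet1 the difference between the sites was 0.02 ± 0.64. Averaged over both sites, Dnmt1 (-0.83, adjusted p = 0.00291), Uhrf1 (-0.95, adjusted p = 0.00526) and Tet1 (-1.80, adjusted p = 0.000695 by edgeR) were called lower in row >3, 3 of 7 members against 12.8% of all genes. Without the 3 LI libraries of replicate 1, Dnmt1 (adjusted p = 0.0553) and Uhrf1 (adjusted p = 0.099) were not called, Tet1 was (adjusted p = 0.00972), and Tet3 was called higher (adjusted p = 0.0406), against 8.62% of all genes. Tet3 was at 0.35 (adjusted p = 0.0692) with all libraries and was called with the replicate block (adjusted p = 0.000362), against 22.1% of genes.

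Border cells sit between centre and row >3 cells in the crypt. Between border and centre cells no member passed edgeR's test in either site. No member had an unadjusted p under 0.05, and DESeq2 also called none. Over all genes 3 were called in the SI (0.0112%), where 8.98% had an unadjusted p under 0.05 and DESeq2 called 0.782%, and 0 in the LI, where 368 (1.38%) had an unadjusted p under 0.05 and DESeq2 called 0. Without the SI libraries of replicate 3 the SI fit called 0.963% of genes and again no member, with log2 fold changes from -0.28 to 0.19. In the LI the libraries of all members overlapped between border and centre, as those of all but 5.44% of genes did. In the SI, Tet3 had 4522, 4036 and 4761 normalised read counts at the border. These lay above all 3 centre libraries, the only member without overlap, against 8.75% of all genes, with a log2 fold change of 0.24 ± 0.18 (SE, adjusted p = 0.766 by edgeR). Dnmt1 had 8127 and 7948 in SI border replicates 1 and 2 but 4896 in replicate 3. Uhrf1 (3436, 3659 and 1759) and Tet1 (139, 187 and 43.1) had the same low library. That library also had the lowest Lgr5 of the SI border, with 157 normalised read counts against 1610 and 2028.

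In the LI border, Dnmt1 had 6269, 5211 and 5166 normalised read counts, Uhrf1 2761, 2440 and 2620, and Tet1 160, 117 and 84.1. All of these lay above the LI row >3 libraries of the same gene, 3 of 7 members against 10.7% of all genes. The log2 fold change from border to row >3 was -1.45 ± 0.46 (SE) for Tet1, -0.41 ± 0.24 for Dnmt1 and -0.38 ± 0.29 for Uhrf1. No member and no gene was called (993 genes had an unadjusted p under 0.05, and DESeq2 called 0).

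Between border and row >3 of the SI no member was called by edgeR, against 1.61% of all genes, with Dnmt1 at -0.93 (adjusted p = 0.0607), Uhrf1 at -1.05 (0.0838) and Tet1 at -1.29 (0.188). With the replicate block within site these 3 were called (adjusted p = 0.000571, 0.000522 and 0.0166 by edgeR), against 9.78% of all genes. Without the SI libraries of replicate 3 the adjusted p was 0.0121, 0.00268 and 0.0277, against 7.23% of all genes called. Leaving out SI border replicate 3 alone gave calls of 3 members, against 5.71% of all genes, and leaving out SI row >3 replicate 2 alone gave 2, against 2.15%. Tet3, with 4036 to 4761 normalised read counts at the border and 4974 to 5487 in row >3, had a log2 fold change of 0.26 ± 0.18 (SE, adjusted p = 0.612 by edgeR).

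The order of the mean levels over the 6 groups was then set out for each gene. Dnmt1 was highest in SI centre, followed by SI border, LI centre, LI border, LI row >3 and SI row >3. Of these neighbours, LI border and LI row >3 alone differed by more than their pooled SD. Uhrf1 had SI centre, LI centre, SI border, LI border, LI row >3 and SI row >3 in this order, with steps beyond the pooled SD between LI border and LI row >3 and between LI row >3 and SI row >3, the latter with libraries that overlapped. Tet1 had the same first 4 groups, and a gap beyond the pooled SD lay between LI border (120 ± 37.8, SD, n = 3) and SI row >3 (46.6 ± 32.2). Tet3 had the reverse order within the SI, from row >3 (5268 ± 264) over border (4440 ± 369) to centre (3730 ± 125), each step beyond the pooled SD, and the 3 LI groups followed at 3440 to 3008 with no such step. No neighbours of Tet2 differed by more than their spread. In Dnmt3a SI centre and SI row >3 did, and in Dnmt3b LI row >3 and SI row >3, the lowest pair, did although their libraries overlapped.

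The shares within each family describe the same levels per length. Of the summed TPM of Dnmt1, Dnmt3a and Dnmt3b, Dnmt1 made up 87.2% ± 1.64 (SD, n = 3) at the SI centre and 78.0% ± 6.78 for SI row >3, with 84.4% in the highest row >3 library and 85.3% in the lowest centre library. Dnmt3a made up 9.84% ± 1.19 and 17.9% ± 5.49. In the LI the share of Dnmt1 was 86.9% ± 0.25 in centre and 82.6% ± 2.83 in row >3. Among the TET genes, Tet3 held 71.3% to 76.9% of the summed TPM in every group mean. Tet1 held 3.65% ± 1.32 in SI centre and 0.753% ± 0.560 in SI row >3, and 3.95% ± 0.20 and 1.09% ± 0.33 in the LI. There were 24.0 ± 9.53 reads of Tet3 per read of Tet1 in SI centre and 155 ± 95.6 in SI row >3, against 19.5 ± 0.40 and 82.0 ± 28.1 in the LI. This ratio did not overlap between centre and row >3 libraries in either site. Over SI replicates 1 and 2 alone the mean share of Dnmt1 was 88.1% in centre and 81.6% in row >3, the share of Tet1 was 4.14% and 4.66% in the centre libraries and 0.540% and 1.39% in those of row >3, and there were on average 18.5 and 107 reads of Tet3 per read of Tet1.

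**Figure D3:**
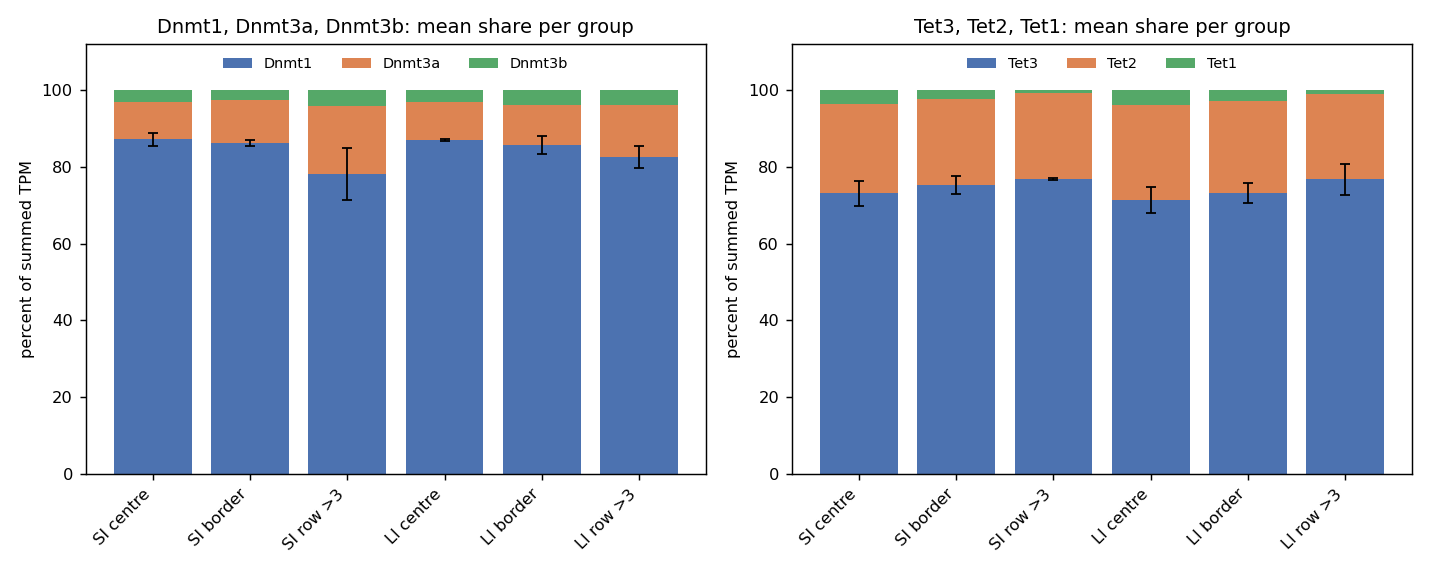
Mean percent of the summed TPM (y axis, from 0) that each gene contributes to the DNMT genes (left) and the TET genes (right) in the 6 groups, with the SD over 3 libraries on the lowest segment. Dnmt1 and Tet3 make up most of each family in all groups, and the Tet1 segment is thinnest in both row >3 groups.

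SI and LI cells of the same eGFP level were compared next. No member was called at any level, where 1.99% of all genes were called for centre, 1.75% for border and 4.09% for row >3. At an unadjusted p under 0.05 there was no member in centre cells, 1 in border cells (Tet3, against 13.9% of genes) and 2 in row >3 cells (Tet2 and Tet3, against 15.7%). DESeq2 called 1 member, Tet3 in row >3 cells (adjusted p = 0.0311), against 6.30% of genes.

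Tet3 had 5342, 4974 and 5487 normalised read counts in SI row >3 against 4523, 2799 and 2997 in LI row >3, so all SI libraries were above all LI libraries. The log2 fold change was 0.56 ± 0.18 (SE, adjusted p = 0.0772 by edgeR), and 0.58 (adjusted p = 0.0402) without the SI libraries of replicate 3. Tet2 had 1616, 1404 and 1630 in the SI against 1164, 1035 and 767 in the LI. It did not overlap either, with 0.59 ± 0.22 (SE, adjusted p = 0.161 by edgeR) and 0.61 (adjusted p = 0.0295) without those libraries, where 12.2% of genes were called. These 2 of 7 members stood against 17.7% of all genes without overlap. Cell type markers differed between the same groups. Called higher in the SI were 6 of 10 absorptive, 4 of 7 Paneth and 2 of 7 enteroendocrine markers, against 2.76% of all genes. So was 1 of 10 immune markers, Itgam. Sis, Apoa4 and Car4 of the absorptive list and Lyz1 and Defa24 of the Paneth list also mark the intestinal region. No tuft or goblet marker was called with all libraries. Without the SI libraries of replicate 3 absorptive markers had 6 higher and 2 lower, and tuft markers 5 higher and 1 lower. The part of these cells was not tested. In border cells Tet3 had 4522, 4036 and 4761 normalised read counts in the SI and 3945, 2777 and 2810 in the LI, with a log2 fold change of 0.43 ± 0.18 (SE, adjusted p = 0.259 by edgeR). Replicate 1 was the LI library nearest to the SI level. Without the 3 LI libraries of that number Tet3 was called in border (0.58, adjusted p = 0.0227, against 3.31% of genes) and row >3 cells (0.78, adjusted p = 0.0024, against 5.31%). Leaving out LI row >3 replicate 1 alone was enough for the call in row >3 cells.

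In centre cells the CPM of all 7 members overlapped between SI and LI libraries, as did that of all but 18.3% of genes, and their log2 fold changes lay between 0.09 for Tet1 and 0.29 for Dnmt1.

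The genes whose levels were most like each member over the 18 libraries were then listed, by Pearson's r of log2 CPM among 10222 genes with a mean of at least 5 CPM. These are descriptions across libraries that share depth, sort and site. Dnmt1 was most like Chaf1a (r = 0.989) and Chaf1b (0.986), subunits of the chromatin assembly factor that acts at replication forks, and Lig1 (0.983), the ligase that joins Okazaki fragments. Uhrf1 was most like the replication licensing factor Cdt1 (0.983), Chaf1b (0.980) and the helicase subunit Mcm2 (0.979). Dnmt1 and Uhrf1 had an r of 0.960 with each other, the 13th highest for Dnmt1. Among the genes most like Tet1 were Mycl (0.958) and Mcc (0.958), and Tet1 had an r of 0.916 with Dnmt1.

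Tet3 was most like Tcf7l2 (0.958), a transcription factor of Wnt signalling, and Ush1c (0.949) was also among the genes nearest to it. Tet2 was most like Evpl (0.864), Malat1 (0.862) and Rnf214 (0.861), and its r with Tet3 was 0.737. Dnmt3a was most like RP23-459L15.7 (0.896), Traf3ip1 (0.894) and Abl1 (0.874), and Dnmt3b like BC027231 (0.870), Fancg (0.857) and Itpr1 (0.843). When group means were taken out, r stayed between 0.966 and 0.983 for the 3 genes of Dnmt1 and between 0.959 and 0.977 for those of Uhrf1, so the likeness also held between libraries of 1 group. Without the SI libraries of replicate 3 the 3 genes of Dnmt1 kept places 1 to 3, whereas Evpl, Malat1 and Rnf214 moved to places 8, 32 and 113 for Tet2 (r = 0.844, 0.809 and 0.747). RP23-459L15.7 moved to place 26 for Dnmt3a, Itpr1 to 12 for Dnmt3b and Mcm2 to 9 for Uhrf1. Tcf7l2 was at place 2 for Tet3.

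A list of 15 S phase genes, which holds Cdt1 and Mcm2 but no member, was used to set these levels beside replication. In SI row >3 against SI centre 12 of the 15 were called, all lower, against 5.82% of all genes called lower, with a median log2 fold change of -1.24. In the LI 0 were called, against 0.0187% of all genes, with a median of -0.40. With the replicate block within site 15 were lower in the SI (22.8% of all genes called) and 1 in the LI (2.59%), and the site difference was called for 7, all with the more negative log2 fold change in the SI (2.32%), against 0 without the block. The median over all genes tested was 0 in both. Across the libraries, r with the mean log2 CPM of the list was 0.972 for Uhrf1, 0.885 for Dnmt1, 0.879 for Tet1, 0.630 for Dnmt3b, 0.153 for Dnmt3a, -0.667 for Tet2 and -0.688 for Tet3. Within the 9 SI libraries it was 0.998 for Uhrf1, 0.986 for Dnmt1, 0.977 for Tet1, 0.752 for Dnmt3b, 0.666 for Dnmt3a, -0.805 for Tet2 and -0.936 for Tet3. Within the 9 LI libraries it was 0.950, 0.860, 0.923, 0.292, 0.036, 0.255 and -0.371 in the same order, so that Tet2 changed sign between the sites. Without the SI libraries of replicate 3, 13 of the 15 genes were called lower in SI row >3 cells, against 17.1% of all genes called. Over the 15 libraries left, r was 0.946 for Uhrf1, 0.837 for Dnmt1, 0.839 for Tet1, 0.595 for Dnmt3b, 0.189 for Dnmt3a, -0.565 for Tet2 and -0.550 for Tet3. With group means taken out of all 18 libraries, r was 0.983, 0.895, 0.920, 0.238, 0.286, -0.630 and -0.366 in the same order.

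Other lists were read in the same fits, with the same shares of all genes called. Of 15 G2/M genes, 5 were lower in SI row >3 cells (median -0.79) and 0 were called in the LI (-0.47), and with the replicate block it was 15 and 5. Of 10 stem cell and Wnt target genes, among them Ascl2 and Rgmb, 8 were lower in SI row >3 (median -2.27) and 0 were called in the LI (-1.17), and with the block it was 10 and 9. The G2/M list had 7 lower in SI row >3 without the SI libraries of replicate 3, and the stem cell list 10, against 17.1% of all genes called. In LI row >3 the same fit gave 1 lower for the G2/M list and 8 for the stem cell list, against 1.90%. Neither list holds a member. Tet1 was about as close to the stem cell list as to the S phase list, with an r of 0.843 over all libraries, 0.972 in the SI and 0.946 in the LI. For Dnmt1 the r with the stem cell list was 0.850, 0.935 and 0.757, and for Uhrf1 it was 0.795, 0.959 and 0.841. With the G2/M list the r over all libraries was 0.786 for Tet1, 0.763 for Dnmt1 and 0.858 for Uhrf1. It was 0.908, 0.936 and 0.936 in the SI but 0.564, 0.336 and 0.558 in the LI, and 0.721, 0.589 and 0.716 over the libraries without SI replicate 3. For Tet3 the r with the G2/M list was -0.747 over all libraries, -0.848 in the SI and -0.876 in the LI. With the stem cell list it was -0.208, -0.968 and -0.430. Which of these genes the members follow was not tested.

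The level of Dnmt1 relative to the S phase list stayed within its spread over the 3 levels of eGFP in the SI. The log2 ratio was 2.52 ± 0.13 (SD, n = 3) in the centre, 2.61 ± 0.11 at the border and 2.54 ± 0.11 for row >3. Over these 9 libraries it went from 2.39 to 2.68. In the LI it was 2.25 ± 0.25, 2.17 ± 0.11 and 2.10 ± 0.14, and every LI library but centre replicate 1 (2.54) lay below the SI range. Uhrf1 had a log2 ratio of 1.34 ± 0.08 in SI centre and 1.15 ± 0.15 in SI row >3, and of 1.21 ± 0.17 and 1.03 ± 0.07 in the LI. Tet1 moved further than the list. Its log2 ratio was -3.05 ± 0.24 in SI centre and -3.88 ± 0.46 in SI row >3, and -3.06 ± 0.20 and -4.50 ± 0.15 in the LI, with no overlap between centre and row >3 libraries in either site. Over SI replicates 1 and 2 alone the mean log2 ratio was 2.45, 2.58 and 2.57 for Dnmt1 at centre, border and row >3, and in centre and row >3 it was 1.38 and 1.22 for Uhrf1 and -2.96 and -3.72 for Tet1.

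**Figure D4:**
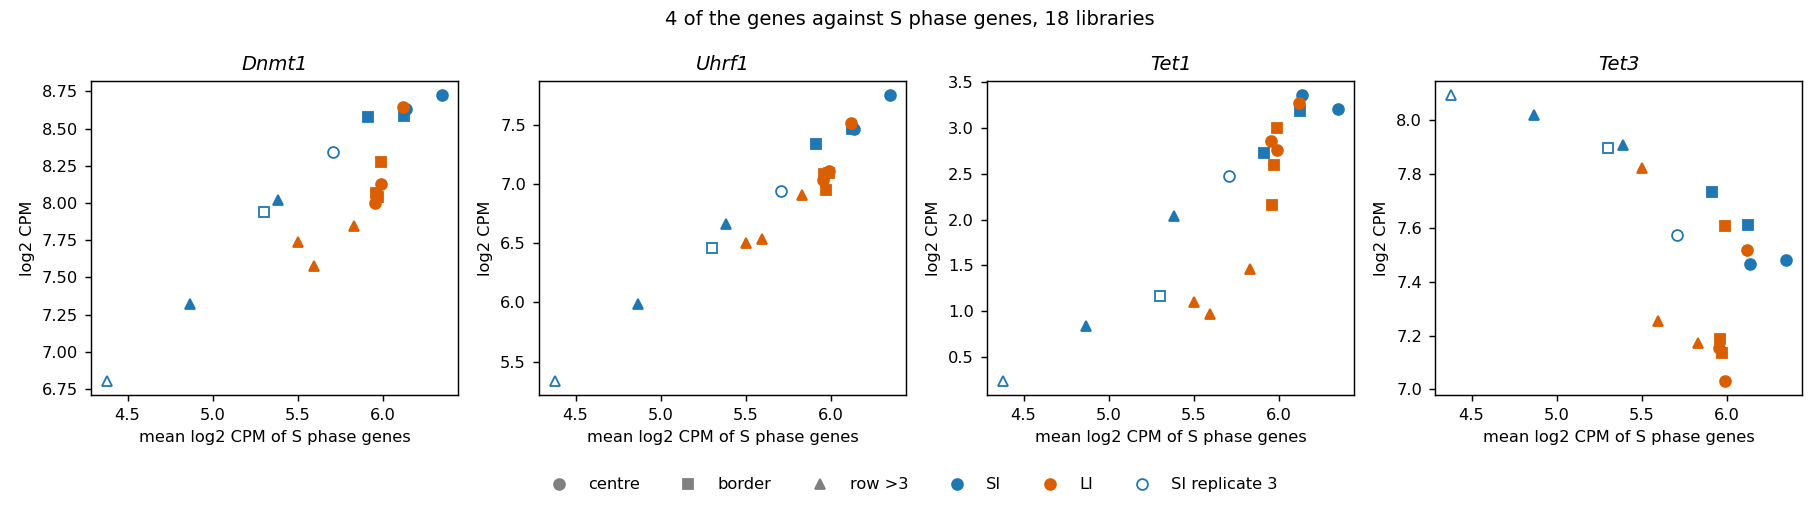
Log2 CPM of Dnmt1, Uhrf1, Tet1 and Tet3 (y axes, prior count 2) against the mean log2 CPM of 15 S phase genes (x axis) in 18 libraries, with the site as colour, the level of eGFP as shape and the 3 SI libraries of replicate 3 as open symbols. Uhrf1 follows the list most closely (r = 0.972), and Tet3 has the lowest r of the 4 (-0.688).

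Other genes of the pathway were read from 4 lists with 41 genes in all. Among 9 readers of methylated CpG, 1 was called in SI row >3 against SI centre, where 13.2% of all genes were called, with a list median of -0.25 against 0 over all genes. This was Zbtb38, a zinc finger protein that binds methylated CpG. It had 5211, 4972 and 4741 normalised read counts in SI centre, 2921, 3952 and 2357 at the border and 1282, 1576 and 1071 in row >3. The 3 groups followed each other without overlap. The log2 fold change of row >3 against centre was -1.92 ± 0.19 (SE, adjusted p = 1.05e-05 by edgeR). Zbtb38 also fell from border to row >3 in the SI (-1.22, adjusted p = 0.00562).

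In the LI Zbtb38 was 1 of the 5 genes called in row >3 against centre. It had 6283, 5535 and 5222 normalised read counts in LI centre, 4986, 4384 and 4205 at the border and 1856, 2946 and 2336 in row >3, with a log2 fold change of -1.25 ± 0.19 (SE, adjusted p = 0.0289 by edgeR) that passed the test in 16 of 31 alternatives. It was lower in SI than in LI row >3 cells (-0.92, adjusted p = 0.00491). Averaged over both sites Zbtb33 (-0.54, adjusted p = 0.0469), which also binds methylated CpG, was called lower beside Zbtb38, and it was called in 15 of 31 alternatives.

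Of 12 partners and regulators, 11 were tested and 5 fell in SI row >3 against centre, where 5.82% of all genes did, while 1 rose. The counts were also 5 and 1 without the SI libraries of replicate 3, against 17.1% of all genes called. The list median was -0.29. Hells, a chromatin remodeller that DNA methylation depends on, had 3893, 3407 and 2241 normalised read counts in SI centre and 1024, 1639 and 818 in row >3, a log2 fold change of -1.45 ± 0.25 (SE, adjusted p = 0.000649 by edgeR). Trim28, a co-repressor (-0.91, adjusted p = 0.00181), and Pcna, the sliding clamp of replication that binds DNMT1 (-1.01, adjusted p = 0.00187), fell too. The other 2 are named after their values were seen. Cdca7, which recruits HELLS, had 5789, 5246 and 2485 in SI centre and 903, 1463 and 540 in row >3 (-2.21, adjusted p = 0.00208), and Uhrf2, the paralogue of Uhrf1, was at -0.58 (adjusted p = 0.0119). Cxxc4, an inhibitor of Wnt signalling that binds CpG and lowers TET2, rose by 1.14 (adjusted p = 0.0401), from 48.6, 73.7 and 78.3 to 178, 161 and 92.1.

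In the LI none of the 11 was called with all libraries and no block, with log2 fold changes of -0.79 for Cdca7 and -0.68 for Hells, and these 2 were called with the replicate block (adjusted p = 0.00495 and 0.0158 by edgeR), where 2.59% of all genes were. They were also called in the fit without the SI libraries of replicate 3 (adjusted p = 0.00821 and 0.0268), where 1.90% of genes were. Pcna was also lower in SI than in LI row >3 cells (-0.87, adjusted p = 0.0141), and Hells fell between SI border and SI row >3 (-1.13, adjusted p = 0.0279).

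Of 10 genes that act on oxidised, deaminated or mismatched cytosine, 2 fell and 1 rose in SI row >3 cells, against 13.2% of all genes called in this comparison, with a list median of -0.17. The counts depended on the libraries and the fit, with 4 lower and 3 higher without the SI libraries of replicate 3 (17.1% of all genes called) and 3 in each direction with the replicate block within site (22.8%). The glycosylase Mbd4 had 370, 321 and 329 normalised read counts in SI centre and 142, 189 and 101 in row >3 (-1.22, adjusted p = 0.0111). The endonuclease Apex1, which cuts the abasic site, was at -1.30 (adjusted p = 0.0125). Gadd45b, a stress-induced gene that has been linked to demethylation, had 41.3, 49.7 and 70.9 in SI centre and 161, 151 and 147 in row >3 (1.51, adjusted p = 0.00671). It was lower in SI centre than in LI centre (-1.76, adjusted p = 0.0106), where it had 189, 179 and 158. Tdg, the glycosylase that removes the products of TET enzymes, was not called, with group means from 946 to 968 in the SI.

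Of 10 genes that supply or recycle S-adenosylmethionine or 2-oxoglutarate, the cofactors of the DNMT and TET enzymes, 3 fell in SI row >3 cells, against 5.82% of all genes called lower, and the list median was -0.16. With the replicate block 3 fell and 1 rose (22.8% of all genes called), and without the SI libraries of replicate 3 it was 2 and 1 (17.1%). Ahcy, which removes the product of methyl transfer, was at -0.59 (adjusted p = 0.00926). Mtr and Mtrr, methionine synthase and its reductase, were at -1.01 (adjusted p = 0.0185) and -0.86 (adjusted p = 0.0349), and Mtrr lost its call without the SI libraries of replicate 3 (adjusted p = 0.133). Ahcy (-0.72, adjusted p = 0.00576) and the mitochondrial dehydrogenase Idh2 (-0.55, adjusted p = 0.0315) were lower in SI than in LI row >3 cells, against 1.32% of all genes. Without the SI libraries of replicate 3 it was 4 of the 10 genes, against 12.2% of all genes called. Idh1 had 2283, 1824 and 4402 normalised read counts in SI row >3 and 6536, 8902 and 10219 in LI row >3, and was not called with all libraries.

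**Figure D5:**
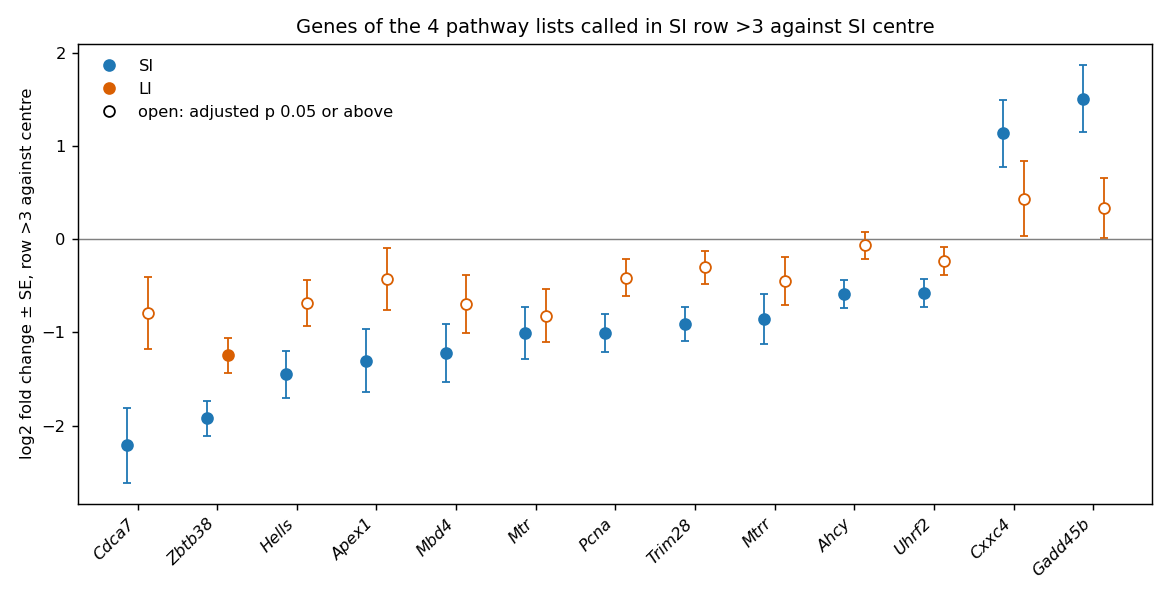
Log2 fold change with its SE (y axis) of row >3 against centre cells in the SI (blue) and the LI (orange) for the 13 genes of the 4 pathway lists that were called in the SI; filled points have an adjusted p under 0.05 over all genes. In the LI only Zbtb38 is filled, at -1.25.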

How the data were processed

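Cells were sorted by eGFP from the SI and LI of Lgr5 reporter mice, and RNA of at least 270 pg was made into stranded SMART-Seq libraries. The authors aligned reads to mm10 with STAR, and the deposited counts are reads per gene. Which annotation release and strand setting served for counting is not given in the sources used here. The deposited normalised values (unit signal) are the authors' counts divided by DESeq2 size factors (largest relative deviation 5.33e-15).

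Counts of 18 libraries in 6 groups of 3 were fitted in 1 model with edgeR 4.0.16 in R 4.3.3 (TMM factors, robust quasi-likelihood with 12 residual degrees of freedom) over 26717 genes with a mean count above 0. Of 2 versions of this fit, the current one was kept and the legacy one is an alternative; both had been seen. CPM, TPM and positions (42462 of 43346 identifiers in GENCODE M21) were computed with Python 3.11.15, pandas 2.3.3 and numpy 2.4.6, and plots with matplotlib 3.10.9. The log2 CPM used a prior count of 2. Alternatives were DESeq2 1.42.0, RLE factors, library size only, other filters, replicate blocks, the groups compared only and leaving out libraries. The edgeR fit without a block, the edgeR fit with the block within site and DESeq2 were tested on data simulated without pairing of libraries. The other alternatives were not tested in this way.

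Equal replicate numbers paired libraries within a site. Over 10223 genes, deviations from the group mean of same-numbered libraries correlated at 0.358 to 0.783 in the 9 SI pairs and 0.444 to 0.684 in the 9 LI pairs, against -0.100 to 0.438 in 27 pairs across sites.

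Promoter windows came from RefSeq on GRCm38.p6. The members and gene lists were chosen with earlier results of these data known. For each member the 3 genes with the highest r were named, and for each pathway list up to 3 called genes per direction by adjusted p. Some of these genes are not reported here.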

Additional observations from a re-analysis of the deposited data

Results flagged for a closer look

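The difference between the sites in the change of Tet2 from centre to row >3 cells passed the test in 1 of the fits that were run. When the 3 SI libraries of replicate 3 were left out and replicate blocks were fitted inside each site, the change was 0.662 higher in the SI than in the LI on the log2 scale (adjusted p = 0.0141 by edgeR), where 7.63% of all genes were called. With all 18 libraries it was 0.43 ± 0.31 (SE, adjusted p = 0.969), and 0.48 (adjusted p = 0.201) with the block. The fit was added after the data were seen.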

How the results depend on the processing

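Of 980 alternative values of 32 member fold changes, those described most fully in the text, 921 kept their direction and their side of the threshold, 53 newly passed it, 5 no longer passed it and 1 changed sign. That 1 is Tet3 in LI row >3 against centre, at -0.034 without LI row >3 replicate 1, with a range of -0.034 to 0.354 over single libraries left out. Over all 84 member fold changes, 32 had another sign under at least 1 alternative, none of them called, with sizes of at most 0.254 on the log2 scale as fitted. Square brackets hold the share of all genes called in the same fit. With replicate blocks inside each site, 6 of 7 members were called in SI row >3 against centre [22.8%], where 3 were without the block, 1 in LI row >3 against centre [2.59%] and 3 in SI row >3 against border [9.78%], with 0 in both without the block, and the block changed no other count of members by over 1.5 times in these comparisons. With the block over all libraries, SI row >3 against border gave 2 [4.65%] and SI against LI row >3 gave 1 [6.89%]. Leaving out the 3 SI libraries of replicate 3 gave 1 for LI row >3 against centre [1.90%], 3 for SI row >3 against border [7.23%] and 2 for SI against LI row >3 [12.2%]. The same with the block, added after the data were seen, gave 5 for SI row >3 against centre [23.7%], 2 in the LI [6.78%], 5 and 1 for row >3 against border in the SI [12.5%] and the LI [1.53%], 1 for the site difference in row >3 against centre [7.63%] and 5 for the mean of both sites [24.1%]. DESeq2 gave 1 for LI row >3 against centre [0.307%], 2 for SI row >3 against border [4.87%] and 1 for SI against LI row >3 [6.30%], filterByExpr gave 1 for each of the latter 2 [4.48% and 8.57%], the legacy fit 1 for SI row >3 against border [1.79%], and the groups compared only 1 for LI row >3 against centre [1.03%]. Without the 3 LI libraries of replicate 1, also added later, SI against LI gave 1 member in border [3.31%] and 1 in row >3 cells [5.31%]. At a log2 fold change over 1 the mean of both sites gave 1, where 1230 of 26717 genes passed. Leaving out single libraries gave 2 to 4 members for SI row >3 against centre [7.45% to 15.4%], 0 to 3 for SI row >3 against border [0.0113% to 5.71%], 0 to 1 for SI against LI row >3 [1.43% to 6.34%], 3 to 4 for the mean of both sites [9.22% to 14.8%] and 0 in the other comparisons. The cause of these differences was not tested.

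Counts over all genes moved more. SI row >3 against centre gave 3518 genes, and 1212 to 6201 over all alternatives. The range was 0 to 1776 for LI row >3 against centre (main 5), 0 to 620 for SI border against centre (3), 0 to 3284 for SI row >3 against border (429), 0 to 401 for LI row >3 against border (0), 42 to 2854, 81 to 2121 and 214 to 3184 for SI against LI in centre, border and row >3 cells (532, 468 and 1092), 0 to 1997 for the site difference in row >3 against centre (0) and 1240 to 6317 for the mean of both sites (3407). Tet1 had the fewest reads of the members, 14 to 232 per library, followed by Dnmt3b with 74 to 248.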
